A study of Homo sapiens with 12 samples.

Results

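Transcript levels of 30 DNA repair and checkpoint genes were followed in 2 human lymphoma cell lines exposed to ST5589, an atypical retinoid that the labels describe as derived from ST1926. The genes were taken by symbol from a list of pathway members, with MRE11 also sought under the older symbol MRE11A. The rule itself used no measured value, but the list was chosen with earlier results of these data known. Shares of the set given beside those of all genes are therefore descriptions and not independent tests. Of the 30 genes, 27 had 1 or more named probes (45 probes in all) and 26 had a probe bright enough to be tested, among 11419 genes tested in all. BRCA2, FANCA and FANCD2 had no probe named here and were not analysed here. The single probe of RAD50 was not above background on any of the 12 arrays. Of the 26 genes tested, all but BRIP1 were above background on every array; BRIP1 passed only through the TMD8 cells given ST5589, so its place among the tested genes depends on its level there.

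The groups were TMD8 cells with 300 nM ST5589, TMD8 cells with DMSO (the vehicle), DOHH2 cells with 300 nM ST5589 and DOHH2 cells with DMSO, with 3 arrays each. TMD8 is an established line of activated B-cell-like diffuse large B-cell lymphoma, and DOHH2 an established line of germinal centre B-cell type. Each is a single line grown in vitro, so a difference between them is a difference between 2 lines and not between lymphoma types. The sources used here state neither the exposure time nor whether replicates were separate cultures. The p-values therefore rest on array-to-array spread that may be technical.

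The genes act at several steps of the response to broken or stalled DNA. At a double-strand break the MRN complex (MRE11, RAD50 and NBN) and the exonuclease EXO1 trim the ends, RPA coats the single strand, and BRCA1, BRCA2 and the RAD54 proteins help the strand to find and invade a matching duplex. The Fanconi proteins open crosslinks for repair, MSH6 reads mismatches, and ATM and ATR signal through CHEK2 and CHEK1 to hold the cell cycle. Many of these genes are transcribed mostly around S phase, and germinal centre B cells, which mutate and recombine their antibody genes, draw on these pathways.

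The arrays themselves were alike in brightness, with median intensities of 90.0 to 113 and 38.0% to 46.1% of probes above background. The B-cell genes CD79A, CD79B and MS4A1 were above background on all 6 arrays of each line, and the PAX5 probe was so on none. The activated B-cell-type genes IRF4, FOXP1, CCND2, PIM1 and ENTPD1 were above background on all arrays and higher in TMD8. Of the 5 germinal centre genes, MME was above background on 6 of 6 DOHH2 arrays and 0 of 6 TMD8 arrays, but BCL6 was so on 1 of 6 DOHH2 arrays against 6 of 6 TMD8 arrays, and MYBL1, LMO2 and SERPINA9 were also lower in DOHH2. The markers thus matched the germinal centre type of DOHH2 only in part. No T and NK cell marker and no stromal or epithelial marker was above background on all 6 arrays of a line, and 1 of 5 myeloid markers was in each (CD14 in TMD8, S100A8 in DOHH2). Among the TMD8 arrays, DMSO replicate 1 had the lowest share of probes above background (40.9%, against 43.5% to 46.1%). It also had the lowest mean correlation with the arrays of its group (0.986, against 0.992 to 0.996). Without it, single genes of the 26 moved by up to 0.27 in TMD8, with a median of 0.06, and 2 changed sign. DOHH2 ST5589 replicate 2 also stood apart. It held signal at 17 probes with high TMD8 intensities that stayed at background on every other DOHH2 array, with a median equal to 4.3% of TMD8's signal, and DOHH2 values without it are given beside the DOHH2 results. Arrays of each line lay on a slide of their own, with the DMSO arrays in the first 3 of the places used. Line and slide, and within a line treatment and place, therefore cannot be told apart.

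In TMD8, ST5589 was accompanied by higher EXO1 and lower PIF1, and by small positive values for most of the other genes that did not pass the test one by one. EXO1, the exonuclease that resects broken ends and removes mismatched strands, rose by 0.46 ± 0.09 on the log2 scale (1.37-fold, adjusted p = 0.0247). PIF1, a helicase that unwinds G-quadruplexes and acts at forks and telomeres, fell by 1.06 ± 0.15 (to a fold of 0.479, adjusted p = 0.0040). Here and below, errors of log2 fold changes are limma standard errors, adjusted p-values are limma's with Benjamini-Hochberg adjustment over the 11419 genes, and genes are called where that value is under 0.05. The 2 genes called of 26 stand beside 0.928% of all genes tested.

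EXO1 had normalized log2 intensities of 10.22, 10.20 and 10.18 in TMD8 cells with ST5589, against 9.87, 9.72 and 9.63 in TMD8 cells with DMSO. Every treated array lay above every DMSO array. A further EXO1 probe gave a log2 fold change of 0.64. Another lay near background and was not tested, and gave -0.08. PIF1 had 7.08, 7.56 and 7.27 in TMD8 cells with ST5589, against 8.51, 8.32 and 8.27 with DMSO, so the groups were well apart. Its other probe lay near background and was not tested; it gave -0.04. The EXO1 call was lost when any of the 3 TMD8 ST5589 arrays, or DMSO replicate 2 or 3 of TMD8, was left out (adjusted p of 0.099 to 0.139), while PIF1 kept its call without any single array (0.0012 to 0.0219). When scaling to a common median replaced quantile normalization, neither passed, EXO1 at 0.22 (adjusted p = 0.975) and PIF1 at -1.18 (adjusted p = 0.139).

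The sequences around the annotated starts of EXO1 and PIF1 are shown because these were the genes of the set called in TMD8. Each runs 250 bases before to 50 bases after the upstream-most start in RefSeq (GRCh38.p14), with capitals marking TTTNNCGC (an E2F-type site), TTTGAA (a CHR-type element) or CCAAT, searched on both strands, so that ATTGG is CCAAT read from the other strand. The EXO1 window lies on the plus strand at chr1:241847954-241848253, and its E2F-type match begins 4 bases after the start. The PIF1 window lies on the minus strand at chr15:64825598-64825897, with a TTTGAA match 20 bases before the start and 2 reversed CCAAT matches upstream of it.
EXO1: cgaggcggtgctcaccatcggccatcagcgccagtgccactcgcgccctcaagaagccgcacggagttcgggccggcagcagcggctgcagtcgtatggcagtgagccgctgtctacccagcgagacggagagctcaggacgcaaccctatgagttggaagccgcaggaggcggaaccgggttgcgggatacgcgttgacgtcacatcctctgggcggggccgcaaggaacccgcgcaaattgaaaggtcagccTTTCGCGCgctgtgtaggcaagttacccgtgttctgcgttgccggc
PIF1: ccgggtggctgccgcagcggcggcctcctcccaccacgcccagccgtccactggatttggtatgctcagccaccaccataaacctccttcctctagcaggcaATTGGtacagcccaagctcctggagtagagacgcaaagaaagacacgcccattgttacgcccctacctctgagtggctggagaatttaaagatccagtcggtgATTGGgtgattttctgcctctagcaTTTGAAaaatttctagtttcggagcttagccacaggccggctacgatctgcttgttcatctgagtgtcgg
TTTNNCGC stood in the window of 6 of the 21 tested genes with a promoter in the table (28.6%), against 13.2% of the 9127 genes tested that had one. The motif did not go with 1 direction in TMD8. Of its carriers, EXO1, MSH6 and CLSPN had positive log2 fold changes, and XRCC2 (-0.21), CHEK2 (-0.06) and TIPIN (-0.01) negative ones. Of the TTTGAA carriers, PIF1 was negative, and BRIP1 (0.32) and ATM (0.01) were positive. CCAAT stood in 16 of the 21 (76.2%, against 43.8%), and TTTGAA in 3 (BRIP1, ATM and PIF1, 14.3%, against 14.3%). No motif contains another. A match is a description of letters and not a binding site.

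**Figure D1:**
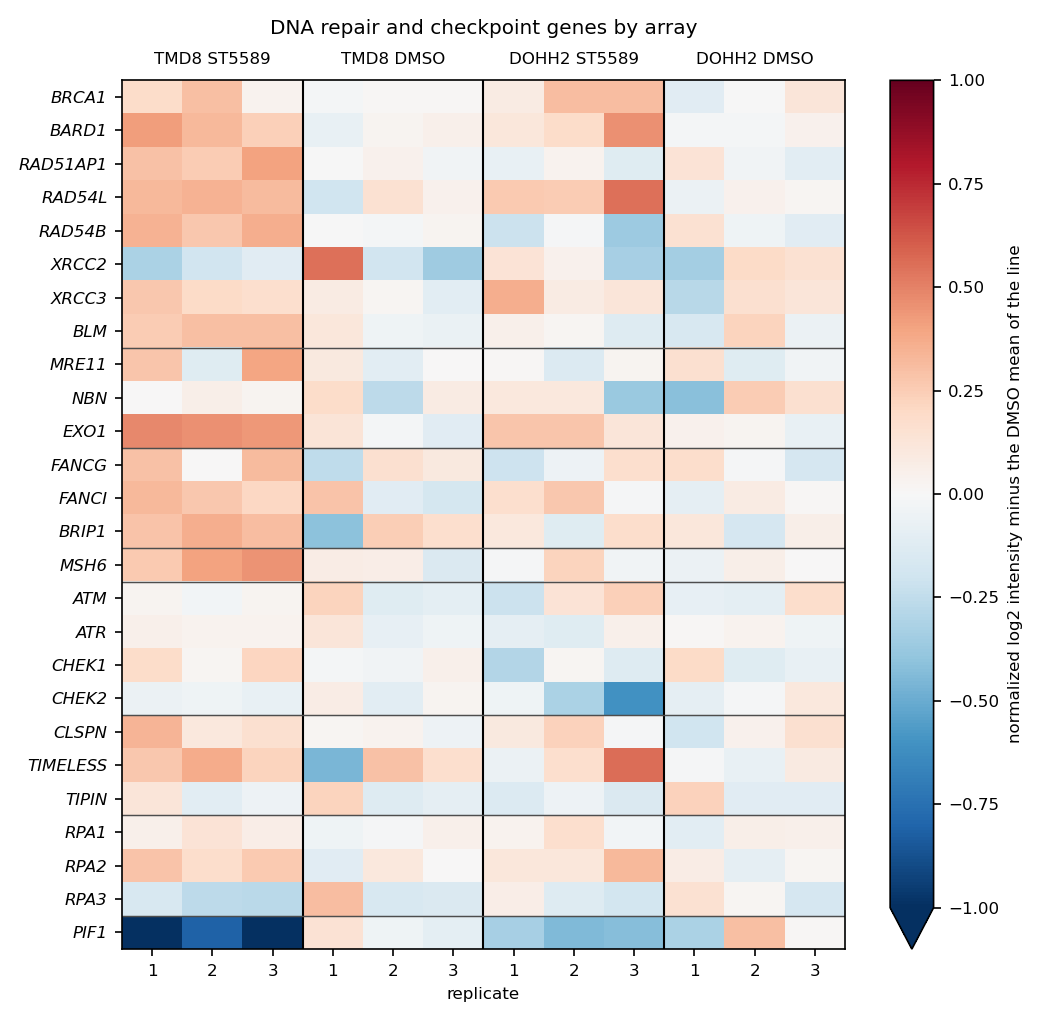
Normalized log2 intensity of each of the 26 genes on each array, as the difference from the DMSO mean of its own line, with genes in rows by role and arrays in columns. The TMD8 ST5589 columns are red in most rows and darkest blue for PIF1 (values under -1 are drawn at -1), while the DOHH2 ST5589 columns are mixed.

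Among the 8 homologous recombination genes in TMD8, the median log2 fold change was 0.30, beside 0.01 over all genes tested, and 7 had every ST5589 array above every DMSO array, as had 9.62% of all genes. None passed the test. Under median scaling of the arrays the group's median was 0.11, and 7 of 8 stayed positive. RAD54L, a DNA motor protein of homologous recombination, had 8.66, 8.68 and 8.65 with ST5589, against 8.14, 8.49 and 8.38 with DMSO (0.33 ± 0.11, adjusted p = 0.322). RAD54B, its paralog, had 7.99, 7.92 and 8.01 with ST5589, against 7.64, 7.63 and 7.68 with DMSO (0.32 ± 0.10, adjusted p = 0.282). Neither gene's groups overlapped. XRCC3, which acts in homologous recombination, had 8.07, 7.99 and 7.97 with ST5589, against 7.88, 7.82 and 7.70 with DMSO (0.21 ± 0.12). BARD1, the partner of BRCA1 in its ubiquitin ligase, gave 0.33 ± 0.10, RAD51AP1, which stimulates strand invasion, gave 0.32 ± 0.09, and the helicase BLM gave 0.29 ± 0.10. BRCA1 itself gave 0.18 ± 0.10 and its further probe 0.16. XRCC2, which also acts in homologous recombination, gave -0.21 ± 0.21, with DMSO replicate 1 at 10.24 and the other arrays of TMD8 between 9.34 and 9.58. Without that array XRCC2 gave 0.07, with array weights 0.02, and its further probe gave 0.06, so its direction in TMD8 was not settled.

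None of the remaining resection, Fanconi and mismatch genes was called in TMD8. MRE11, the nuclease of the MRN complex, had 7.49, 7.09 and 7.61 with ST5589, against 7.32, 7.11 and 7.22 with DMSO, groups that overlapped (0.18 ± 0.13), and 0.03 at each of its 2 further probes. NBN, which recruits ATM to the break, had 8.99, 9.05 and 9.02 with ST5589, against 9.17, 8.73 and 9.07 with DMSO (0.03 ± 0.18). The NBN value was -0.10 at a further probe, -0.14 under median scaling of the arrays and -0.03 as the mean of its probes. FANCI, which is monoubiquitinated with FANCD2 at crosslinks, had 9.29, 9.23 and 9.17 with ST5589, against 9.25, 8.85 and 8.79 with DMSO (0.27 ± 0.12, adjusted p = 0.662). In FANCI only DMSO replicate 1 reached into the range of the treated arrays, and the value without it was 0.41. FANCG, of the Fanconi core complex, gave 0.20 ± 0.14, but 0.08 without DMSO replicate 1. BRIP1, a helicase that binds BRCA1, had 6.47, 6.55 and 6.49 with ST5589, against 5.77, 6.43 and 6.35 with DMSO (0.32 ± 0.15, but 0.11 without DMSO replicate 1), close to or below the background limit of 6.15 to 6.22 on the TMD8 arrays. MSH6, which recognises mismatches, had 10.83, 10.97 and 11.01 with ST5589, against 10.64, 10.63 and 10.42 with DMSO. Its groups did not overlap, and its log2 fold change of 0.37 ± 0.10 was the next highest after EXO1 (adjusted p = 0.147).

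The 4 checkpoint kinases showed no such separation in TMD8, with a median log2 fold change of 0.02 and overlapping groups for each. CHEK1 had 8.92, 8.75 and 8.94 with ST5589, against 8.71, 8.70 and 8.78 with DMSO (0.14 ± 0.11, but -0.014 under median scaling of the arrays). CHEK2 had 7.10, 7.11 and 7.09 with ST5589, against 7.24, 7.05 and 7.19 with DMSO (-0.06 ± 0.12), and its further probe gave -0.23. ATM gave 0.01 ± 0.13 and ATR, which was dim throughout at 6.27 to 6.53, gave 0.04 ± 0.08. A p that missed the threshold does not show that these kinases were unchanged. Of the fork proteins, CLSPN, the adaptor through which ATR activates CHEK1, had 6.54, 6.30 and 6.36 with ST5589, against 6.22, 6.23 and 6.15 with DMSO (0.20 ± 0.11). Those DMSO values lay close to the background limit of the same arrays (6.22, 6.15 and 6.15). TIPIN had 8.82, 8.60 and 8.65 with ST5589, against 8.92, 8.57 and 8.61 with DMSO (-0.01 ± 0.12). Its partner TIMELESS had 10.44, 10.54 and 10.39 with ST5589, against 9.71, 10.46 and 10.34 with DMSO (0.29 ± 0.18). The TIMELESS value rested on DMSO replicate 1 and was 0.06 without it.

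The 3 subunits of RPA did not share a direction in TMD8. RPA1, the large subunit, had 10.96, 11.05 and 10.98 with ST5589, against 10.87, 10.90 and 10.96 with DMSO (0.09 ± 0.09). RPA2, the subunit phosphorylated upon damage, had 10.46, 10.35 and 10.44 with ST5589, against 10.06, 10.29 and 10.18 with DMSO (0.24 ± 0.09, adjusted p = 0.521). RPA3, the small subunit, had 11.39, 11.29 and 11.29 with ST5589, against 11.86, 11.39 and 11.41 with DMSO (-0.23 ± 0.13, but -0.08 without DMSO replicate 1). Treated arrays lay above the DMSO arrays for RPA1 and RPA2 and below them for RPA3, and none of the 3 passed the test; RPA1 turned to -0.16 with arrays scaled to a common median.

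Over the 26 genes in TMD8, 21 had a positive log2 fold change and the median was 0.20, beside 0.01 over all genes. An unadjusted p under 0.05 was reached by 10 genes (9 higher and 1 lower), beside 7.29% of all genes tested. Every ST5589 array lay above every DMSO array for 13 genes, beside 9.62% of all genes, and below for 2, beside 8.16%. The 13 include BRIP1, which was kept only through its level on the TMD8 ST5589 arrays, so its separation there adds no support. With only probes above background on all 12 arrays, which leaves BRIP1 out, 20 genes were positive and 5 negative, with a median of 0.20. The median of the 26 genes on single arrays, as the difference from the DMSO mean, was 0.27, 0.15 and 0.21 with ST5589, against 0.08, -0.02 and -0.02 with DMSO. Scaling to a common median moved the median of all genes from 0.01 to -0.09 and that of the 26 genes to 0.04, which is 0.13 above all genes in place of 0.19, and 17 genes then had a positive value. With array weights in the fit, 9 of the 26 passed (8 higher and 1 lower): EXO1, MSH6, FANCI, RAD51AP1, RAD54B, BLM, BARD1 and RAD54L rose and PIF1 fell. That fit also called 3.98% of all genes, in place of 0.928%. The opposite came with the replicate block, an offset of 16 or the line alone, which each called 1 of the 26, and with median scaling, which called 0 (limma), with 1 at an unadjusted p under 0.05. On the TMD8 arrays, 17 probes for small nuclear RNAs also differed, with medians of 9.71, 10.63 and 9.68 with ST5589, against 8.04, 7.75 and 7.66 with DMSO. The medians of 4 ribosomal RNA probes were 11.35, 12.85 and 11.69 with ST5589, against 10.73, 10.91 and 10.85 with DMSO. Their part in the results for TMD8 was not tested.

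**Figure D2:**
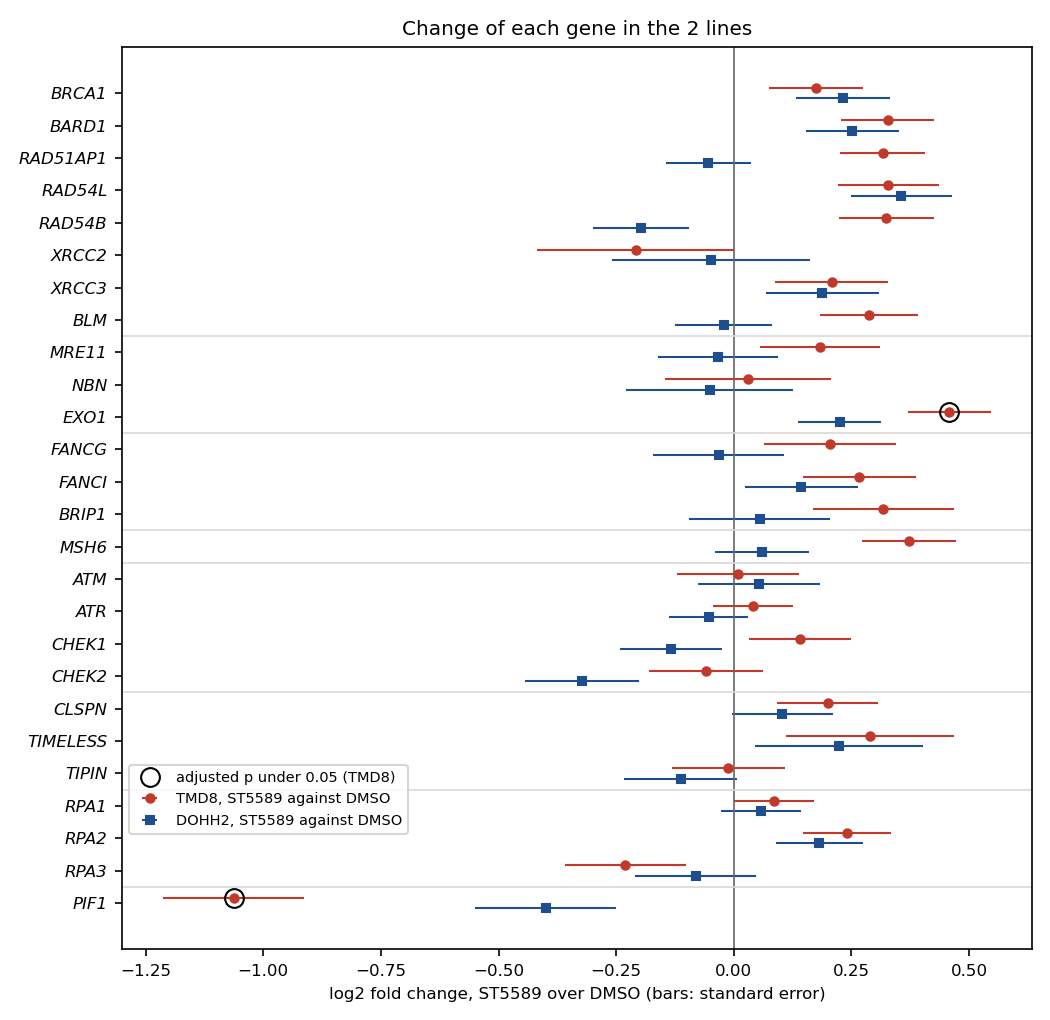
Log2 fold change of each gene, ST5589 over DMSO, in TMD8 (red circles) and DOHH2 (blue squares), with limma standard errors as bars and grey lines between roles. The black rings mark EXO1 and PIF1 in TMD8, which passed the threshold; no DOHH2 value did.

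In DOHH2 no gene of the set passed the test, and values were split evenly about 0, with 13 positive and 13 negative. Limma called 0 of the 26 genes, beside 0.035% of all genes, and 6 reached an unadjusted p under 0.05 (4 higher and 2 lower), beside 4.77%. The median log2 fold change was 0.02, beside 0.01 over all genes. Without DOHH2 ST5589 replicate 2 the median was -0.01 and the count of calls remained 0, with 4 at an unadjusted p under 0.05. Single genes moved by at most 0.09 without that array, and 2 of the 26 changed sign, MSH6 to -0.02 and MRE11 to 0.02. On single arrays the median difference from the DMSO mean was 0.04, 0.06 and -0.01 with ST5589, against -0.04, 0.01 and 0.02 with DMSO.

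The genes with separate groups in DOHH2 were also separate, in the same direction, in TMD8: BARD1, RAD54L, EXO1 and RPA2 lay above DMSO on every ST5589 array (beside 4.41% of all genes) and PIF1 below (beside 3.91%). Without DOHH2 ST5589 replicate 2 they gave 0.29 (BARD1), 0.41 (RAD54L), 0.20 (EXO1), 0.22 (RPA2) and -0.38 (PIF1). EXO1 had 9.67, 9.67 and 9.51 in DOHH2 cells with ST5589, against 9.44, 9.42 and 9.32 with DMSO (0.23 ± 0.09, adjusted p = 0.927). RAD54L had 8.95, 8.93 and 9.23 with ST5589, against 8.62, 8.72 and 8.70 with DMSO, the highest value of the set in this line (0.36 ± 0.11, adjusted p = 0.88). RPA2 had 10.91, 10.91 and 11.12 with ST5589, against 10.87, 10.70 and 10.82 with DMSO (0.18 ± 0.09). BARD1 gave 0.25 ± 0.10. PIF1 had 7.89, 7.78 and 7.80 with ST5589, against 7.91, 8.53 and 8.24 with DMSO (-0.40 ± 0.15, adjusted p = 0.927). For PIF1 the gap between the groups was small, since DMSO replicate 1 lay next to the treated arrays.

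The other values in DOHH2 lay between -0.32 and 0.23, with overlapping groups. CHEK2 had 8.88, 8.62 and 8.32 with ST5589, against 8.84, 8.92 and 9.03 with DMSO (-0.32 ± 0.12, adjusted p = 0.927), and its further probe gave -0.13. CHEK1 had 9.52, 9.84 and 9.69 with ST5589, against 10.01, 9.70 and 9.74 with DMSO (-0.13 ± 0.11). For CHEK2 the first treated replicate lay within the DMSO range, and for CHEK1 the arrays of the groups were interleaved. RAD54B had 7.92, 8.12 and 7.77 with ST5589, against 8.29, 8.09 and 8.01 with DMSO (-0.20 ± 0.10). XRCC3 had 8.55, 8.27 and 8.30 with ST5589, against 7.91, 8.34 and 8.31 with DMSO (0.19 ± 0.12). BRCA1 gave 0.23 ± 0.10 and its further probe 0.20. MRE11 had 7.88, 7.73 and 7.90 with ST5589, against 8.03, 7.75 and 7.83 with DMSO (-0.03 ± 0.13), and NBN had 9.71, 9.71 and 9.24 with ST5589, against 9.19, 9.86 and 9.77 with DMSO (-0.05 ± 0.18). Further probes gave -0.26 and -0.18 for MRE11 and 0.04 for NBN. Without DOHH2 ST5589 replicate 2 the values were -0.33 for CHEK2, -0.21 for CHEK1, -0.29 for RAD54B, 0.24 for XRCC3, 0.19 for BRCA1 and -0.13 for NBN. The NBN arrays spread more widely than those of MRE11 and EXO1 in both groups.

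For the Fanconi, mismatch, fork and remaining RPA genes the DOHH2 groups overlapped as well. FANCI had 9.52, 9.62 and 9.34 with ST5589, against 9.26, 9.43 and 9.36 with DMSO (0.14 ± 0.12). BRIP1 had 6.26, 6.03 and 6.33 with ST5589, against 6.26, 5.98 and 6.21 with DMSO, with 1 array of each group above background (0.06 ± 0.15). MSH6 had 11.12, 11.36 and 11.10 with ST5589, against 11.07, 11.19 and 11.13 with DMSO (0.06 ± 0.10). The separate groups that MSH6 had in TMD8 were not seen in DOHH2. CLSPN had 6.83, 6.96 and 6.72 with ST5589, against 6.53, 6.77 and 6.89 with DMSO (0.10 ± 0.11). TIPIN had 8.90, 8.99 and 8.90 with ST5589, against 9.28, 8.93 and 8.93 with DMSO (-0.11 ± 0.12). RPA1 had 10.56, 10.70 and 10.50 with ST5589, against 10.42, 10.59 and 10.58 with DMSO (0.06 ± 0.09), and RPA3 had 12.09, 11.89 and 11.84 with ST5589, against 12.17, 12.04 and 11.85 with DMSO (-0.08 ± 0.13). Without DOHH2 ST5589 replicate 2 the values were 0.08 for FANCI, 0.14 for BRIP1, 0.04 for CLSPN, -0.14 for TIPIN, 0.00 for RPA1 and -0.06 for RPA3.

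**Figure D3:**
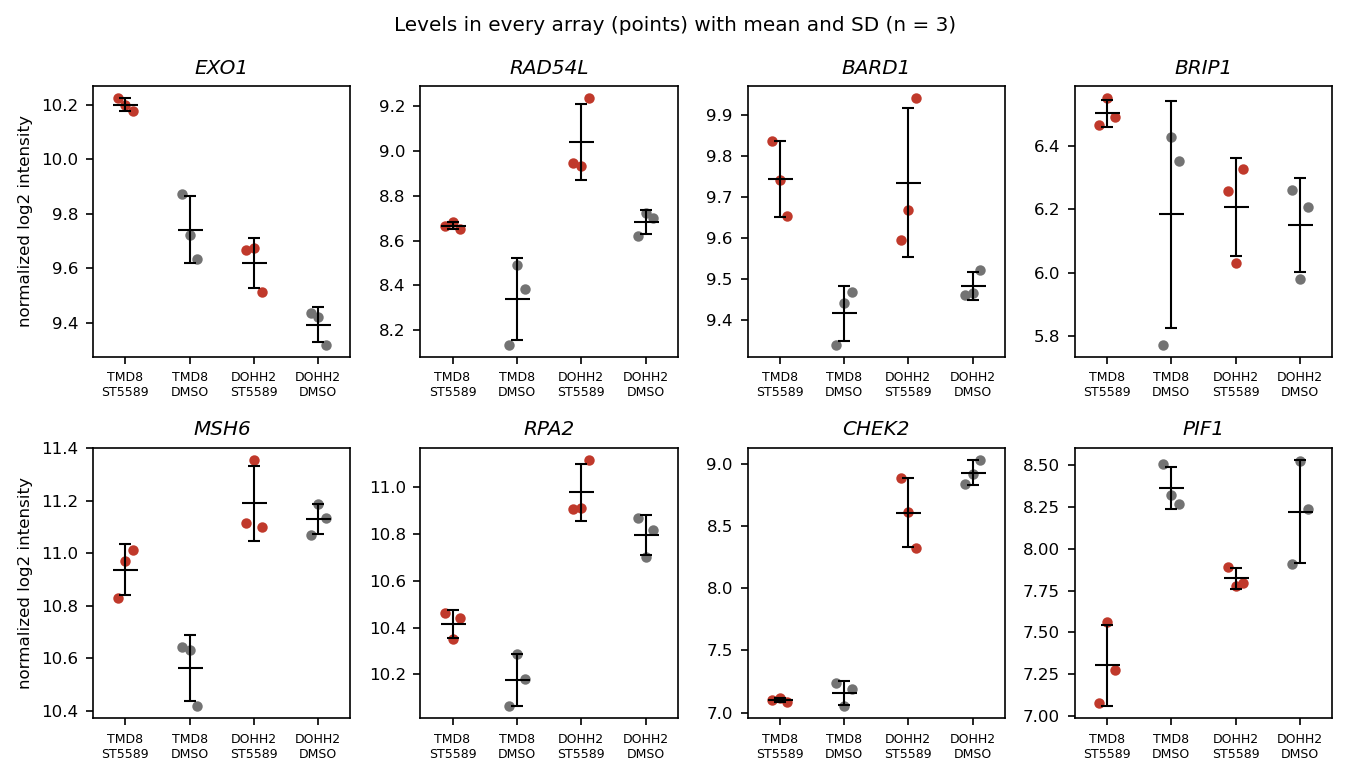
Normalized log2 intensity of 8 genes on every array (red, ST5589; grey, DMSO), with the mean and SD of each group of 3 in black and a separate vertical scale for each gene. EXO1, RAD54L, BARD1 and RPA2 lie above DMSO in both lines and PIF1 below, while CHEK2 differs mainly between the lines.

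The test of the difference between the lines' responses, DOHH2 minus TMD8, called none of the 26 genes (limma, beside 0.0175% of all genes), and 4 reached an unadjusted p under 0.05, beside 2.69%. A larger response in 1 line was therefore not shown for any of them. The 4 genes were RAD54B (-0.52 ± 0.14, adjusted p = 0.723), RAD51AP1 (-0.37 ± 0.13), MSH6 (-0.31 ± 0.14) and PIF1 (0.66 ± 0.21). RAD54B was positive in TMD8 and negative in DOHH2, and PIF1 was negative in both lines and more so in TMD8. Of the 26 differences, 20 were negative, with a median of -0.10, or -0.15 without DOHH2 ST5589 replicate 2. By sign, 13 genes were positive in both lines, 5 were negative in both, and 8 were positive in TMD8 and negative in DOHH2.

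Averaged over both lines, EXO1 rose by 0.34 ± 0.06 (adjusted p = 0.0165) and PIF1 fell by 0.73 ± 0.11 (adjusted p = 0.0038), 2 of 26 genes beside 0.744% of all genes tested. Under median scaling of the arrays neither passed, EXO1 at 0.16 (adjusted p = 0.937) and PIF1 at -0.83 (adjusted p = 0.198). RAD54L gave 0.34 ± 0.08 (adjusted p = 0.0618) and BARD1 0.29 ± 0.07 (adjusted p = 0.0972), each with all 6 ST5589 arrays above the DMSO arrays of their line, and neither passed. An unadjusted p under 0.05 was reached by 10 genes, beside 10.5% of all genes. The median was 0.11, but -0.01 with arrays scaled to a common median, where the median of all genes was -0.06. EXO1 lost this call when any of 6 arrays was left out (TMD8 ST5589 replicates 1 and 3, TMD8 DMSO replicates 2 and 3, DOHH2 ST5589 replicate 2 and DOHH2 DMSO replicate 3), at adjusted p of 0.0505 to 0.0643.

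**Figure D4:**
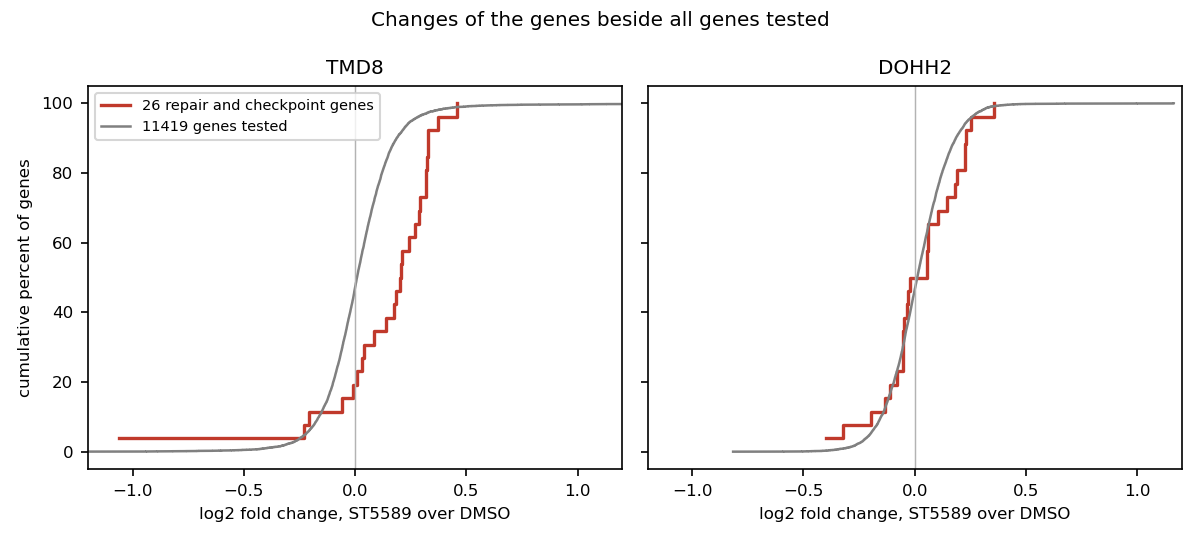
Cumulative percent of genes against log2 fold change, ST5589 over DMSO, for the 26 genes (red) and all 11419 genes tested (grey) in each line; a few genes past the ends of the axis are not drawn. In TMD8 the red curve lies right of the grey one over most of its height, with medians of 0.20 and 0.01, and in DOHH2 the medians are 0.02 and 0.01.

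More of these genes differed between the lines than after ST5589 within either line. Under DMSO, 15 of the 26 genes differed between DOHH2 and TMD8, beside 53.8% of all genes: 13 were higher in DOHH2, beside 26.1%, and 2 were lower, beside 27.7%. The share called, 57.7% of the 26, was thus near that of all genes, while the median log2 fold change was 0.27, beside -0.02 over all genes. With arrays scaled to a common median, 4 of the 15 kept their call (CHEK2, CHEK1, MRE11 and CLSPN). That is 15.4% of the 26, below the 34.3% of all genes then called, and the median was 0.20, beside -0.07 over all genes.

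The checkpoint kinases CHEK2 and CHEK1 had the largest differences of the set. CHEK2, which carries the ATM signal from broken ends, had 8.84, 8.92 and 9.03 in DOHH2 with DMSO, against 7.24, 7.05 and 7.19 in TMD8 with DMSO, a 3.41-fold difference (1.77 ± 0.12 on the log2 scale, adjusted p = 2.8e-08). Its further probe gave 1.45. CHEK1, which carries the ATR signal from stalled forks, had 10.01, 9.70 and 9.74 in DOHH2, against 8.71, 8.70 and 8.78 in TMD8, a 2.12-fold difference (1.09 ± 0.11, adjusted p = 1.2e-06). Both kinases were apart by much more than the spread within a group. The kinases above them in the pathway were not called, with ATM at 0.02 ± 0.13 and ATR at 0.13 ± 0.08. A further ATM probe gave -0.24.

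The window at the start of CHEK2 is shown because this gene had the largest difference between the lines. It lies on the minus strand at chr22:28741771-28742070 (RefSeq, GRCh38.p14), with a TTTNNCGC match 9 bases before the start and 3 reversed CCAAT matches, all in capitals.
CHEK2: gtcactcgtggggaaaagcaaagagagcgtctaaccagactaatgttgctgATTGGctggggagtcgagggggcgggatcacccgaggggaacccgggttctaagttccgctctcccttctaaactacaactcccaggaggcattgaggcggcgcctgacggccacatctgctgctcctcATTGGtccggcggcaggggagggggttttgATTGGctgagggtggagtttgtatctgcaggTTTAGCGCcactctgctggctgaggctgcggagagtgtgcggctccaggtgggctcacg
The CHEK1 window held a reversed CCAAT match and neither of the other motifs, so the pair of kinases did not share the E2F-type letters in these windows.

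MRN and RPA genes also stood higher in DOHH2 under DMSO, apart from RPA1. MRE11 gave 0.65 ± 0.13 (adjusted p = 6.5e-04), with 0.72 and 0.28 at its further probes, and NBN gave 0.62 ± 0.18 (adjusted p = 0.0093) with 0.43. RPA2 gave 0.62 ± 0.09 and RPA3 0.47 ± 0.13, although the RPA3 groups overlapped at 11.85 in DOHH2 and 11.86 in TMD8. RPA1 was lower in DOHH2 (-0.38 ± 0.09, adjusted p = 0.0018), as at its further probes (-0.27 and -0.23). The subunits of RPA thus differed between the lines in opposite directions under quantile normalization, and neither RPA1 nor RPA2 passed with arrays scaled to a common median. EXO1 was the other gene lower in DOHH2 (-0.35 ± 0.09, adjusted p = 0.0042), but its further probe gave -0.07.

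The other genes called between the lines were MSH6 (0.57 ± 0.10), CLSPN (0.53 ± 0.11), RAD54B (0.48 ± 0.10), XRCC3 (0.38 ± 0.12), FANCI (0.38 ± 0.12), RAD54L (0.34 ± 0.11) and TIPIN (0.34 ± 0.12), all higher in DOHH2. CLSPN lay close to the background limit in TMD8 with DMSO. The 11 genes not called ran from -0.25 for FANCG to 0.20 for BLM. Among them BRCA1 gave -0.24 ± 0.10 (adjusted p = 0.0547) and RAD51AP1 -0.21 ± 0.09 (adjusted p = 0.0667). PIF1 gave -0.14 ± 0.15, and the levels of the gene that fell most in TMD8 after ST5589 overlapped between the lines, 7.91 to 8.53 in DOHH2 and 8.27 to 8.51 in TMD8.

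**Figure D5:**
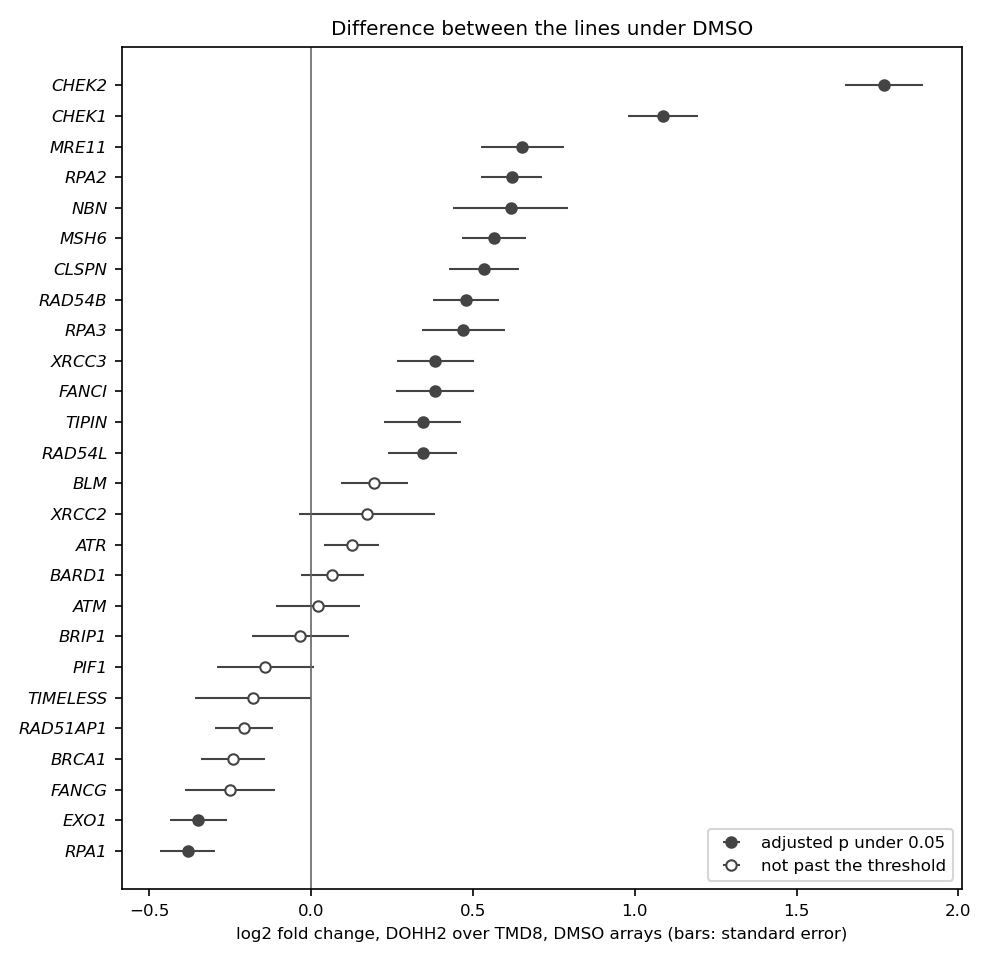
Log2 fold change of each gene under DMSO, DOHH2 over TMD8, in order of size, with limma standard errors as bars; filled points passed an adjusted p of 0.05. CHEK2 (1.77) and CHEK1 (1.09) lie far right of the other genes, and EXO1 and RPA1 are the called genes left of 0.

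A wider list of 138 further repair and checkpoint genes, of which 124 were tested, had a lower median in TMD8. This median log2 fold change was 0.05, with 62.9% of the 124 positive beside 52.7% of all genes, and the median in DOHH2 was 0.01. Within it the further homologous recombination genes had a median of 0.08 (31 genes) and the further Fanconi genes 0.09 (17 genes) in TMD8, against -0.03 for 18 checkpoint genes. TMD8 had 2 called genes on this list (1.61%, beside 0.928% of all genes), both higher: UNG, the glycosylase that removes uracil, at 0.53 ± 0.10 (adjusted p = 0.0247), and DDB2, the damage sensor of nucleotide excision repair, at 0.46 ± 0.10 (adjusted p = 0.0457). UNG had 10.69, 10.75 and 10.75 in TMD8 with ST5589, against 10.05, 10.24 and 10.32 with DMSO. DDB2 had 7.58, 7.86 and 7.67 with ST5589, against 7.30, 7.24 and 7.20 with DMSO. Neither gene's groups overlapped in TMD8. DOHH2 had 0 called genes on the list (limma), with 10 at an unadjusted p under 0.05 (8.06%, beside 4.77% of all genes). The average over both lines added CDC25A, the phosphatase that checkpoint kinases mark for destruction, at 0.44 ± 0.09 (adjusted p = 0.047). The calls of UNG, DDB2 and CDC25A were not followed through the alternative settings. Over all genes tested, scaling to a common median left 9 called in TMD8 in place of 106. Between the lines under DMSO, 33 of the 124 were higher in DOHH2 (26.6%, beside 26.1% of all genes) and 28 lower (22.6%, beside 27.7%).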

How the data were processed

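RNA was hybridised to 12 arrays on Illumina expression beadchips of 1 colour, with 1 beadchip (slide) for each line and 47231 probes. Per the labels' protocols, total RNA of stated integrity was amplified to biotin-labelled cRNA, and GenomeStudio is named in the submitters' processing notes without a version. The authors deposited non-normalized probe intensity values and a second table of log2 values, whose normalization no source used here gives. The deposited table holds no detection p-values or control probes.

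Intensities were corrected with normexp (offset 50), quantile normalized and put on the log2 scale (limma 3.58.1, R 4.3.3). A probe was above background over the array's mode plus 2.33 mirrored SD, and was kept if above background on all 3 arrays of 1 or more groups (20535 probes). Names came from the platform annotation, updated to current symbols: 30113 probes had 1 symbol, 8 several and 17110 none. The brightest kept probe stood for a gene (11419 genes). One limma model over all 12 arrays, with 1 coefficient per group and no block, gave all comparisons. The number of arrays limits the precision (median standard error 0.11 within a line).

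The genes and lists were chosen with earlier results of these data known. Values of every array were printed for genes of the set called in any comparison and for the largest change of each role; genes of the wider list were named if called after treatment. Same-numbered ST5589 and DMSO arrays did not deviate together (correlations of -0.49 to 0.00), so the values gave no sign of pairing by number. With 3 arrays per group such correlations cannot exclude it. Differently numbered DOHH2 arrays correlated more strongly, from -0.53 (ST5589 replicate 3 with DMSO replicate 2) to 0.57 (ST5589 replicate 1 with DMSO replicate 2). Arrays of the DOHH2 groups thus shared deviations that the model did not take in. On simulated data the fit called 31 of 67 genes changed by 0.5 and 66 of 67 changed by 1 in TMD8, with 5 of 11219 unchanged genes called. Noise was drawn independently for each array, so shared deviations were not covered. Normalization was not simulated, and no change smaller than 0.5 was tried. Alternatives covered scaling, background, offset, the authors' log2 values, filters, probe choice, the line alone, a replicate block, array weights and leaving out each array.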

Additional observations from a re-analysis of the deposited data

How the results depend on the processing

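In TMD8, in the average and between the lines, scaling to a common median gave the lowest counts of genes called and array weights the highest. With arrays scaled to a common median, calls in TMD8 were 9 in place of 106 genes and 0 in place of 2 of the set (median 0.040); DOHH2 gave 0 in place of 4 genes (median -0.11), the difference 0 in place of 2, the average 0 in place of 85 genes and 0 in place of 2 of the set (median -0.015), and the line comparison 3922 in place of 6149 genes (1671 higher and 2251 lower, in place of 2982 and 3167) and 4 in place of 15 of the set (median 0.20). Signs then reversed for CHEK1 (-0.014) and RPA1 (-0.16) in TMD8 and for RAD51AP1 (-0.066), MSH6 (-0.0063) and RPA1 (-0.14) in the average. The median of all genes was itself -0.094 in TMD8 and -0.063 in the average with this scaling. CHEK1 in TMD8 and MSH6 in the average stayed above that median. RAD51AP1 in the average lay just below it, and RPA1 further below in both. The cause was not tested.

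With array weights, TMD8 gave 455 genes and 9 of the set (8 higher, 1 lower), the average 270 and 6, and the difference 15 (median -0.15), and CHEK1 turned to 0.014 in DOHH2. The replicate block takes arrays of equal number as pairs, which no source used here states. It gave 40 genes and 1 of the set (PIF1) in TMD8, 0 in DOHH2, 1 in the difference and 46 and 1 in the average. An offset of 16 left 1 of the set in TMD8 and in the average, 2 genes in DOHH2 and 4 in the difference. No background correction left 1 gene in DOHH2 and 1 in the difference, the authors' log2 values 1 in the difference, the line alone 1 of the set in TMD8 and 1 gene in DOHH2, and the filter over all 12 arrays 1 gene in DOHH2 and a line median of 0.34.

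Without single arrays, genes called ranged over 50 to 117 in TMD8, 1 to 5 in DOHH2, 0 to 18 in the difference, 64 to 82 in the average and 5362 to 6355 between lines. Members of the set called ranged over 1 to 2 in TMD8, 0 in DOHH2 and the difference, 1 to 2 in the average and 12 to 17 between lines. Their medians ranged over 0.15 to 0.25, -0.01 to 0.06, -0.15 to -0.081, 0.09 to 0.14 and 0.21 to 0.34 in the same order. Of 2777 recomputed values 116 changed sign, 110 of them within 1 standard error of 0 in the reported fit (these are not counted as reversals), and none was past the threshold. Many of the 2777 could not change. Leaving out an array of 1 line left the log2 fold changes within the other line as they were. The line alone and the replicate block altered only their errors. The share that changed sign is therefore no measure of stability.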
